A study of Mus musculus with 15 samples.

Results

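Lungs of mice that inhaled house dust mite (HDM) extract and received adipose tissue-derived mesenchymal stromal cells (MSCs) through the nose were compared with lungs of mice given HDM extract without MSCs. All animals were female wild-type C57BL/6 mice that received 10 micrograms of HDM extract intranasally on 5 days of each week, and lungs were taken on day 15. MSCs were given on day 6 in 5 mice and on day 13 in another 5, labelled by the submitters as long-term and short-term effects. Total RNA of lung lobes was sequenced, 1 library per mouse. The comparison took 14 of the 15 libraries, with 9 libraries from both MSC times as one side and 5 HDM-alone libraries as the other. Day 13 replicate 3 was left out by the rule of the comparison. The labels do not say whether the HDM-alone mice received a vehicle in place of MSCs, and saline-only lungs were not analysed here.

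HDM extract drives an allergic airway inflammation in mice, in which epithelial alarmins and T helper 2 cytokines recruit eosinophils and activate B cells, and in which lymphoid aggregates with germinal centres can form beside airways and vessels. MSCs are stromal cells that release soluble mediators and are studied as a cell therapy that dampens immune responses. A lung lobe holds epithelium, vessels, smooth muscle, fibroblasts and blood-derived cells together, so each level below is an average over all of them. In such bulk tissue, fewer cells of a type and less RNA per cell cannot be told apart.

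The 14 libraries held 26945272 to 44201637 counts and 26542 to 29154 genes with a count. All 10 genes of a list of lung identity markers were among the tested genes. The library left out held 17182599 counts and 43174 genes with a count, and Rag1, a recombinase gene of developing lymphocytes, was at 1797 counts per 1000000 counts (CPM) in it against at most 7.22 in the others. HDM replicates 1 and 2 stood apart on the first principal component, which carried 26.7% of the variance: they lay at -46.6 and -60.7, and the other 12 libraries between -14.7 and 32.6. Of 149 called genes examined singly, 66 were also called without these libraries, and a lost call is given beside the gene or its list. Levels below are CPM with library sizes scaled by the trimmed mean of M values. Fold changes are log2 values of the MSC side against the HDM side with their standard errors (SE), and adjusted p-values come from edgeR's quasi-likelihood test with Benjamini-Hochberg adjustment over all 19387 genes tested. Genes with an adjusted p under 0.05 are termed called. Nothing in the labels ties mice to cages or litters.

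Across all genes tested, 1942 were called, which was 10.0% of them. Of these, 750 (3.87%) were higher and 1192 (6.15%) were lower in the MSC lungs. With upper-quartile scaling the split was 991 higher and 969 lower. The changes were small: the median log2 fold change was 0.46 over the genes called higher and -0.35 over the genes called lower, against 0.03 over all genes tested. A change of at least 1.5-fold was found for 248 of the higher and 224 of the lower genes. In 630 genes (3.25% of all tested) the 9 MSC values did not overlap the 5 HDM values, with all MSC values above in 199 (1.03%) and below in 431 (2.22%). The count of called genes leaned on single HDM libraries, with 936 without HDM replicate 1, 1125 without HDM replicate 2, and 2904 without HDM replicate 3. Without both HDM replicates 1 and 2 it was 1541, of which 722 were shared with the 1942. Of the 1942 genes, 723 (205 higher and 518 lower) stayed called whichever single library of the 14 was left out.

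Immunoglobulin constant genes were called lower in 5 of 12 tested and immunoglobulin variable segments in 23 of 165, and none of either was called higher. Among 15101 protein-coding genes, 522 were called higher and 1102 lower. The lower calls lay mainly among abundant messages. In the quintile of protein-coding genes with the highest mean CPM, 407 of 3019 were called lower and 83 higher, whereas in the lowest quintile the counts were 64 and 59. Among 1344 loci of the annotation class TEC, candidate genes without full experimental support, 105 were called higher and 8 lower. A table of 54 gene lists was read against these backgrounds, and the plot of lists with at least 3 called members shows the mitochondrial genome, antibody genes and B cells at the low end and smooth muscle, ciliated cells and the clock at the high end.

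**Figure D1:**
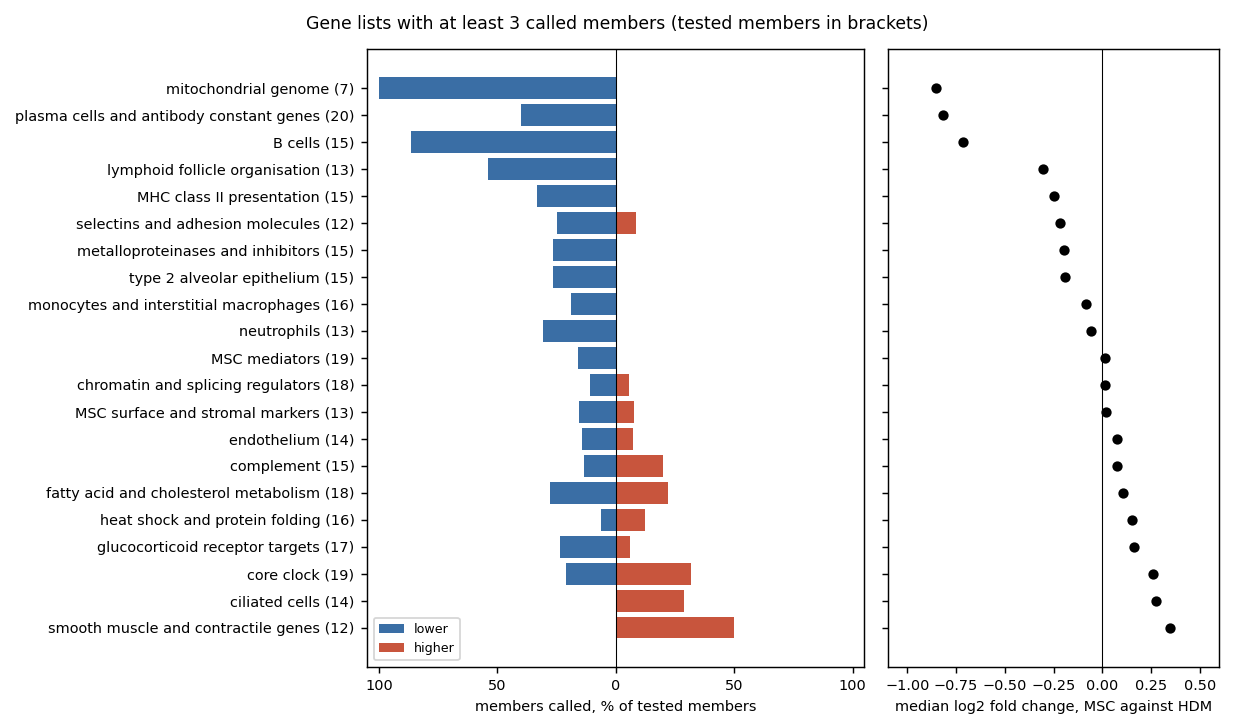
Left, share of each list's tested members called lower (blue, leftward) or higher (red, rightward) in MSC lungs against HDM alone, in percent of tested members. Right, the list's median log2 fold change. The B-cell list had 13 of 15 members called lower and a median of -0.72, and the smooth muscle list had 6 of 12 called higher and a median of 0.35.

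Genes of B lymphocytes were lower in the lungs of MSC-treated mice. Of 15 B-cell genes tested, 13 were called lower and 0 higher. Their median log2 fold change was -0.72, and all 15 values were below 0. The summed level of the list was 660 to 972 CPM in the HDM lungs and 327 to 608 CPM in the MSC lungs. Fcrla, an intracellular Fc receptor-like protein of B cells, was at 23.2, 26.3, 18.3, 18.6 and 18.6 CPM in the 5 HDM lungs and at 7.13, 10.3 and 13.7 CPM (lowest, median and highest) in the 9 MSC lungs. Every MSC lung lay below every HDM lung, and the log2 fold change was -0.98 (SE 0.13, adjusted p = 0.00178). Tnfrsf13c, the receptor for the B-cell survival factor BAFF, is on the follicle list below and not on this one. It was at 31.8, 35.9, 16.6, 16.5 and 18.1 CPM in the HDM lungs and at 7.49, 11 and 12.3 CPM in the MSC lungs. The groups did not overlap here either, HDM replicates 1 and 2 lay far above the other HDM lungs, and the log2 fold change was -1.17 (SE 0.17, adjusted p = 0.00246). It was -0.71 (adjusted p = 0.00444) without those HDM libraries.

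Both chains that carry the signal of the B-cell receptor were lower. Cd79b was at 77.0, 83.1, 73.8, 76.6 and 73.2 CPM in the HDM lungs and at 25.9, 49.1 and 54.3 CPM in the MSC lungs, a tight HDM group with no overlap (log2 fold change -0.73, SE 0.12, adjusted p = 0.00385). Cd79a fell by 0.60 on the log2 scale (adjusted p = 0.0245). Ms4a1, which encodes the surface protein CD20, was at 68.8, 79.5, 50.5, 52.9 and 55.0 CPM in the HDM lungs and at 20.6, 35.5 and 42.8 CPM in the MSC lungs, again without overlap (log2 fold change -0.79, adjusted p = 0.0043). Pax5, the transcription factor that holds B-cell identity, fell by 0.89 (adjusted p = 0.00726), Spib by 0.72 (adjusted p = 0.00458) and Fcmr, the Fc receptor for immunoglobulin M, by 0.80 (adjusted p = 0.0043) on the log2 scale. The lung of day 13 replicate 5 had the lowest value of all 14 for Cd79b, Ms4a1 and Cxcr5. Leaving that library out kept 13 called members and a list median of -0.65. Leaving out HDM replicates 1 and 2 left 8 called members and a median of -0.59, and Pax5 was then not called (adjusted p = 0.0519).

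**Figure D2:**
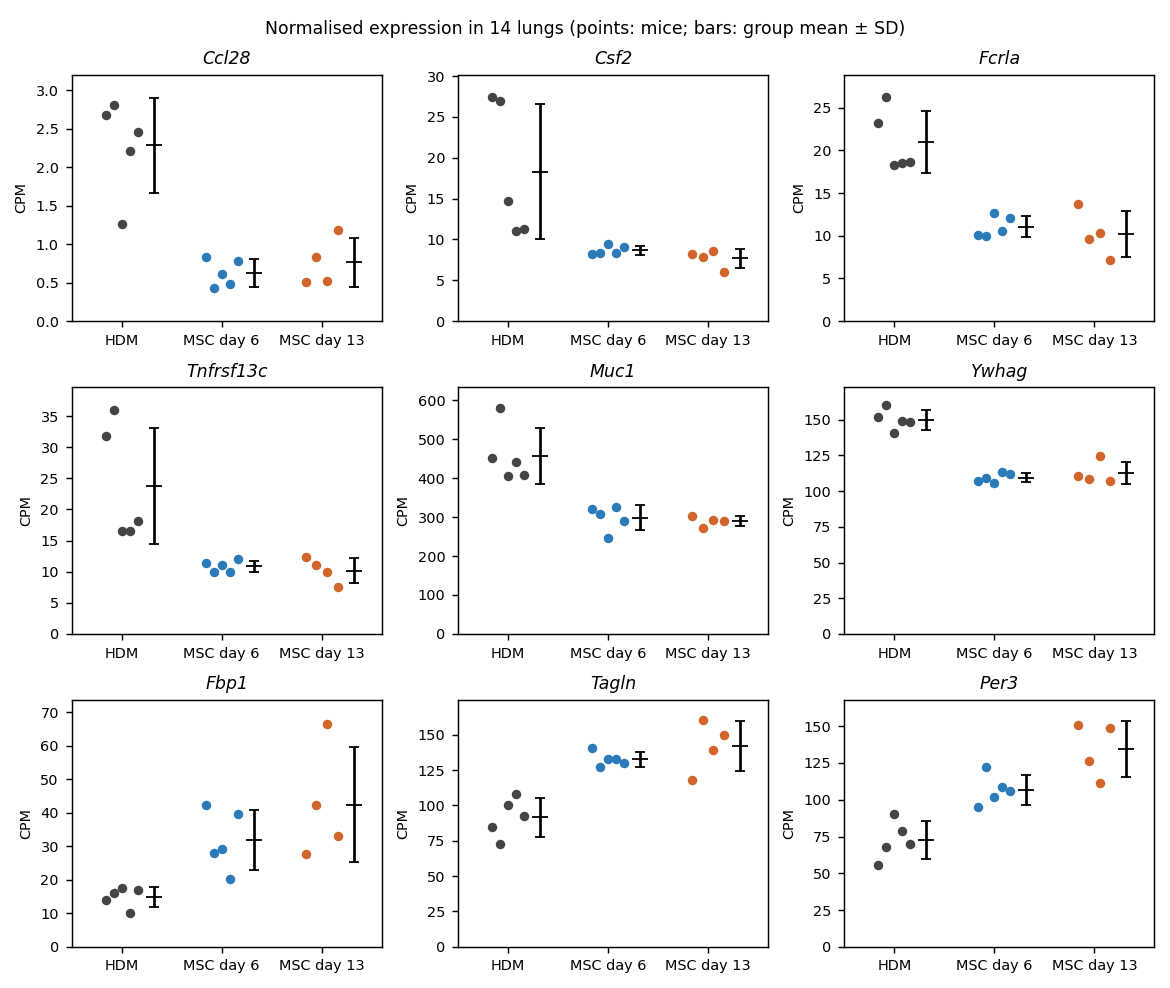
CPM of 9 genes in each lung (points), by group, with the group mean ± SD as a bar to the right of the points; n = 5 HDM, 5 MSC day 6 and 4 MSC day 13 lungs. Ccl28, Csf2, Fcrla, Tnfrsf13c, Muc1 and Ywhag lie lower in every MSC lung than in every HDM lung, and Fbp1, Tagln and Per3 lie higher.

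A further 4 genes outside the list were picked because their values were low, so they describe no group. Cd180, a Toll-like receptor relative that modulates B-cell activation, was at 38.4, 41.5, 24.5, 28.2 and 28.0 CPM in the HDM lungs and at 13.9, 17.4 and 20.4 CPM in the MSC lungs (log2 fold change -0.88, SE 0.12, adjusted p = 0.00178). Pou2f2, the octamer-binding factor of B cells, fell by 0.84 (adjusted p = 0.0018). The endosomal receptors for single-stranded RNA and for unmethylated DNA, Tlr7 and Tlr9, fell by 0.53 (adjusted p = 0.00214) and 0.67 (adjusted p = 0.00256) on the log2 scale. Each of these 4 kept its call without HDM replicates 1 and 2, with the largest adjusted p at 0.00981 for Tlr9.

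Antibody genes were lower in amount but varied more from mouse to mouse. Of 20 plasma cell and antibody constant genes, 8 were called lower and 0 higher, and the median log2 fold change was -0.82. Ighd, the constant region of immunoglobulin D carried by naive B cells, was at 118, 128, 83.3, 70.8 and 74.8 CPM in the HDM lungs and at 31.2, 51.9 and 58.6 CPM in the MSC lungs, without overlap (log2 fold change -0.96, SE 0.15, adjusted p = 0.0028). Igkc, the kappa light chain constant region and the most abundant of the named antibody genes, was at 3046, 6259, 976, 2653 and 2440 CPM in the HDM lungs and at 277, 883 and 1683 CPM in the MSC lungs. HDM replicate 3 lay inside the MSC range, and the log2 fold change of -1.79 (SE 0.45, adjusted p = 0.0265) lost its call without HDM replicates 1 and 2 (-1.20, adjusted p = 0.158). Ighg2b, an immunoglobulin G heavy chain, had a log2 fold change of -1.33 (adjusted p = 0.0148; 0.0724 without HDM replicates 1 and 2). Iglc2, a lambda light chain, had one of -1.06 (adjusted p = 0.00644). Only 4 of the 20 genes were called without HDM replicates 1 and 2, and 5 with day 13 replicate 3 included. The lowest log2 fold change among called genes averaging 1 CPM or more was that of a heavy-chain variable segment, Ighv15-2 (-6.12, adjusted p = 0.0139), a class outside the rule for named genes. It was at 48.0 CPM in HDM replicate 4, at 0.0933 to 2.27 CPM in the other HDM lungs and at 0.0282 to 0.449 CPM in the MSC lungs, so a single lung held most of the HDM signal and the groups overlapped.

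Genes of lymphoid follicles were lower in 10 of 13 tested members, 7 of which were called lower (median log2 fold change -0.31). Of these 7, Cr2 and Fcer2a are also on the B-cell list, and Tnfrsf13c was described above. The lists therefore share genes and are not separate evidence. Cxcr5, the receptor that guides B cells into follicles, was at 23.1, 25.4, 23.7, 24.3 and 24.5 CPM in the HDM lungs and at 8.86, 15.4 and 18.6 CPM in the MSC lungs. The HDM lungs were nearly alike and all lay above the MSC lungs (log2 fold change -0.68, SE 0.12, adjusted p = 0.00456). Nuggc, a GTPase gene of germinal centre B cells outside the list, had a log2 fold change of -1.34 (adjusted p = 0.0408) and an adjusted p of 0.429 without HDM replicates 1 and 2. The called count of the follicle list was then 3.

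Class II antigen presentation genes were lower in part. Of 15 class II genes, 5 were called lower and 0 higher. The median log2 fold change was -0.25, with 14 of 15 values below 0. H2-Ob, a chain of the B-cell modulator of peptide loading, was at 58.0, 62.2, 50.6, 52.3 and 56.1 CPM in the HDM lungs and at 28.8, 39.7 and 48.3 CPM in the MSC lungs (log2 fold change -0.50, SE 0.10, adjusted p = 0.00785), without overlap. H2-Eb2 and H2-DMb2 fell by 0.77 (adjusted p = 0.00804) and 0.43 (adjusted p = 0.0163), the latter with an adjusted p of 0.0625 without HDM replicates 1 and 2. Of 13 class I genes, B2m, the light chain of class I molecules, was the one called lower. It was at 5898 and 6114 CPM in HDM replicates 1 and 2, at 2702, 2721 and 2862 CPM in the other HDM lungs, and at 1482, 2048 and 2711 CPM in the MSC lungs. Without HDM replicates 1 and 2 its log2 fold change went from -0.96 (adjusted p = 0.01) to -0.41 (adjusted p = 0.0631).

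T-cell genes gave 1 call among 15 tested, with 14 values below 0 and a median log2 fold change of -0.20. Trac, the constant region of the T-cell receptor alpha chain, had a log2 fold change of -0.60 (adjusted p = 0.0101). It was -0.45 (adjusted p = 0.0585) without HDM replicates 1 and 2 and -0.10 (adjusted p = 0.92) once day 13 replicate 3 was included. Of 12 NK and cytotoxic genes, Eomes, a transcription factor of these cells, was called lower (-0.69, adjusted p = 0.00727). Cd274, which encodes the checkpoint ligand PD-L1, was called lower (-0.31, adjusted p = 0.0129) as 1 of 12 regulatory T-cell and checkpoint genes.

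The type 2 cytokine genes that define this model did not pass the test. Il13 was at 0.859, 0.509, 0.210, 1.09 and 1.68 CPM in the HDM lungs and at 0.252, 0.960 and 1.70 CPM in the MSC lungs (log2 fold change 0.22, SE 0.40, adjusted p = 0.756), so the groups overlapped throughout. Il4 had a log2 fold change of 0.06 (SE 0.27, adjusted p = 0.918) and Il5 one of 0.25 (SE 0.32, adjusted p = 0.642). Il33, the epithelial alarmin, was at 288, 244, 285, 221 and 408 CPM in the HDM lungs and at 188, 248 and 317 CPM in the MSC lungs (-0.25, SE 0.14, adjusted p = 0.249). The eosinophil chemoattractant Ccl11 and the goblet cell mucin Muc5ac stood at log2 fold changes of 0.22 (SE 0.28, adjusted p = 0.645) and 0.15 (SE 0.39, adjusted p = 0.833). Of the 12 type 2 genes tested, Il13ra1, a chain of the IL-13 receptor, was called lower (-0.24, SE 0.06, adjusted p = 0.0193), and lost the call without HDM replicates 1 and 2 (adjusted p = 0.0713). Club and goblet cell genes gave no call in 15 and alternative macrophage activation genes none in 12.

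A few GM-CSF and myeloid genes were called lower, where 6.15% of all genes tested were called lower. Csf2, which encodes the macrophage growth factor GM-CSF, was at 27.4, 26.9, 14.7, 11.1 and 11.3 CPM in the HDM lungs and at 6.02, 8.36 and 9.42 CPM in the MSC lungs. All MSC lungs lay below all HDM lungs, with a log2 fold change of -1.15 (SE 0.19, adjusted p = 0.00393), and of -0.60 (adjusted p = 0.00996) without HDM replicates 1 and 2. Csf2rb2, a receptor subunit for IL-3 in mice that is closely similar in sequence to Csf2rb, was at 36.3, 40.4, 30.5, 53.8 and 56.6 CPM in the HDM lungs and at 21.6, 28.5 and 34.8 CPM in the MSC lungs (-0.62, SE 0.14, adjusted p = 0.013). Of 8 tested genes of GM-CSF, M-CSF and their receptors, these were the 2 called. Reads of such near copies may have been divided between them by the counting.

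Among 16 monocyte and interstitial macrophage genes, 3 were called lower, and the list median was -0.08. Alveolar macrophage genes gave 1 call in each direction among 15, with a median of 0.05. Dendritic cell genes gave 0 calls among 12, with a median of 0.06. Ms4a7, a membrane protein of tissue macrophages, was at 32.8, 28.7, 17.0, 26.3 and 29.4 CPM in the HDM lungs and at 11.4, 17.0 and 19.2 CPM in the MSC lungs (log2 fold change -0.70, SE 0.13, adjusted p = 0.00562). HDM replicate 3 lay among the MSC lungs. C3ar1, the receptor for the complement fragment C3a, was at 81.3, 77.5, 39.5, 66.0 and 77.4 CPM in the HDM lungs and at 24.2, 38.4 and 48.4 CPM in the MSC lungs (-0.83, SE 0.16, adjusted p = 0.00708). The complement proteases C1s1 and C1ra were called in the other direction, at 0.32 (SE 0.07, adjusted p = 0.00894) and 0.27 (SE 0.07, adjusted p = 0.0265). Ly6c2, a surface protein of inflammatory monocytes, had a log2 fold change of -0.59 (adjusted p = 0.0204). Without HDM replicates 1 and 2, C3ar1 (-0.68, adjusted p = 0.0601), C1ra (adjusted p = 0.163) and Ly6c2 (adjusted p = 0.065) were not called, and 1 of the 16 monocyte and macrophage genes was.

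Of 13 neutrophil genes, 4 were called lower, while the list median was -0.06. Retnlg, a secreted neutrophil protein, had a log2 fold change of -0.69 (adjusted p = 0.0151), Lcn2, an iron-siderophore binding protein also made by epithelium, one of -0.59 (adjusted p = 0.0155) and Mmp8, the neutrophil collagenase, one of -0.56 (adjusted p = 0.033). Only 1 of the 13, Mmp8, was called without HDM replicates 1 and 2. The eosinophil receptors Ccr3 and Il5ra were called lower, at -0.53 (adjusted p = 0.0332) and -0.46 (adjusted p = 0.0415). They were the 2 calls among 11 eosinophil genes, 5 of which had values below 0. Neither was called without HDM replicates 1 and 2, with adjusted p-values of 0.201 and 0.285.

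Transcripts of the mitochondrial genome took a smaller share of the MSC libraries. Both mitochondrial ribosomal RNAs together made up 3.63% ± 0.592 (SD, n = 5) of counts in HDM lungs and 2.05% ± 0.295 (SD, n = 9) in MSC lungs, and mitochondrial messages 1.95% ± 0.679 and 1.17% ± 0.0622. Neither share overlapped between the sides (exact two-sided permutation over 2002 splits, p = 0.000999, which is the smallest these splits can give, adjusted p = 0.00233 over 7 shares). All 7 tested mitochondrial protein genes were called lower, with a median log2 fold change of -0.85. The other 6 of the 13 did not pass the filter on low counts, so the share of mitochondrial messages rests mainly on the 7 tested. Of the 13, 2 had fewer than 10 counts in all 14 libraries together. Why these genes had so few counts was not tested. mt-Nd1, a core subunit of respiratory complex I, was at 2805, 3492, 1821, 1758 and 1478 CPM in the HDM lungs and at 1125, 1238 and 1338 CPM in the MSC lungs (-0.88, SE 0.15, adjusted p = 0.00393). HDM replicates 1 and 2 were highest, and without them its log2 fold change was -0.47 (adjusted p = 0.00474), with 5 of the 7 genes still called and a list median of -0.46.

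The mitochondrial ribosomal RNAs did not share that lean on HDM replicates 1 and 2. mt-Rnr1, the small-subunit RNA, was at 4888, 5941, 7477, 5616 and 4737 CPM in the HDM lungs and at 1738, 2516 and 3347 CPM in the MSC lungs, with a log2 fold change of -1.15 (SE 0.16, adjusted p = 0.0018) and of -1.21 (adjusted p = 0.00472) without those libraries. Nuclear-encoded respiratory chain genes gave 1 call among 18, Ndufa2, which was higher (0.32, adjusted p = 0.0335; 0.21 without HDM replicates 1 and 2), and a median of 0.09. The non-coding nuclear loci Mir6236 and n-R5-8s1 were among the largest falls and do not stand for their class. Among 241 small non-coding genes tested, 13 were called higher and 5 lower, and among 1811 long non-coding genes 70 and 29. Mir6236, an annotated microRNA gene, was at 44.4, 63.5, 211, 105 and 112 CPM in the HDM lungs and at 12.6, 24.3 and 60.5 CPM in the MSC lungs (-1.84, SE 0.42, adjusted p = 0.0197). The 5.8S ribosomal RNA gene n-R5-8s1 was low in count, at 3.26, 1.92, 11.9, 6.92 and 8.59 CPM in the HDM lungs. In the MSC lungs it was at 1.37, 2.13 and 2.95 CPM, so HDM replicate 2 lay inside the MSC range. Its log2 fold change was -1.59 (SE 0.31, adjusted p = 0.0077). The ribosomal RNA loci named here were lower on the MSC side but did not follow each other lung by lung. Their part in the other results was not tested.

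**Figure D3:**
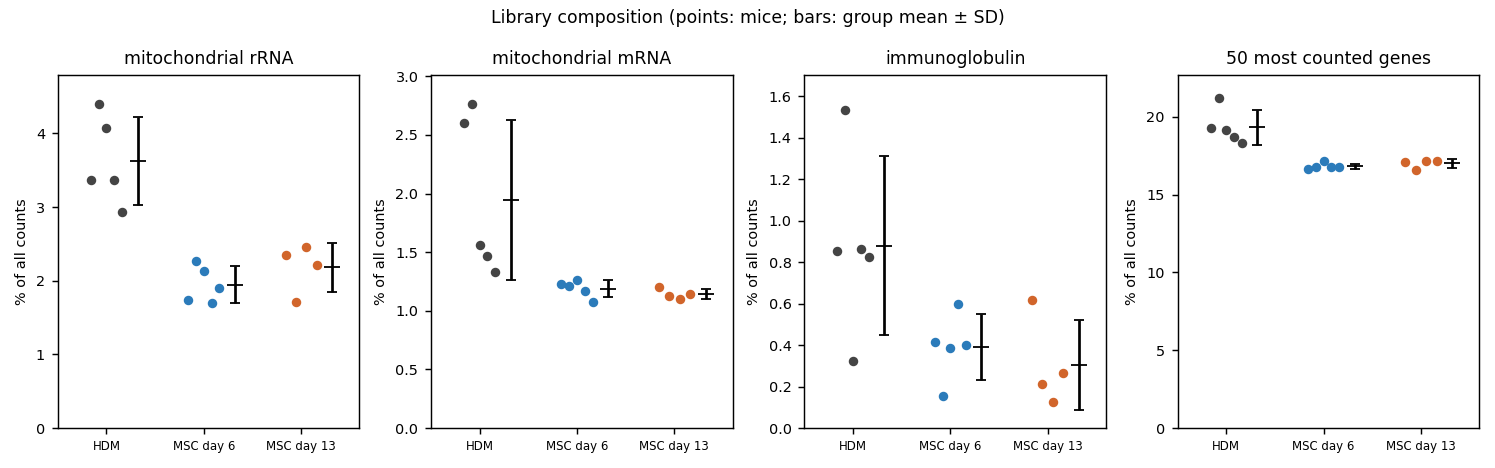
Share of all counts in each lung (points, percent) taken by mitochondrial ribosomal RNA, mitochondrial messages, immunoglobulin genes and the 50 most counted genes, with group mean ± SD as bars. The first 2 and the last share did not overlap between HDM and MSC lungs; immunoglobulin did.

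Immunoglobulin genes took 0.880% ± 0.432 (SD, n = 5) of HDM counts and 0.353% ± 0.179 (SD, n = 9) of MSC counts (exact permutation p = 0.00899, adjusted p = 0.0157), and the 50 most counted genes took 19.3% ± 1.11 and 16.9% ± 0.243 (adjusted p = 0.00233, no overlap). Haemoglobin genes, a measure of blood in the lobe, took 0.0675% and 0.0775% (exact permutation, adjusted p = 0.558) and cytosolic ribosomal protein genes 1.69% and 1.75% (adjusted p = 0.451). Long non-coding genes took 2.619% of HDM counts and 2.976% of MSC counts (exact permutation, adjusted p = 0.1035). Adipocyte markers gave no call in 10 and summed to 210 to 279 CPM in HDM and 186 to 256 CPM in MSC lungs, and cardiomyocyte markers gave none in 12. Of 9 tested thymocyte markers 1 was called, Tcf7 (-0.32, adjusted p = 0.0198; 0.0734 without HDM replicates 1 and 2), and the defining thymocyte genes Rag2 and Ptcra were too low to be tested.

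Epithelial genes moved in both directions. Muc1, a transmembrane mucin of the alveolar and airway surface, was at 451, 581, 405, 441 and 409 CPM in the HDM lungs and at 247, 292 and 325 CPM in the MSC lungs. The gap between the groups was wide and the log2 fold change was -0.64 (SE 0.08, adjusted p = 0.00178). Ccl28, an epithelial chemokine that attracts antibody-secreting cells, was at 2.68, 2.81, 1.26, 2.22 and 2.46 CPM in the HDM lungs and at 0.424, 0.608 and 1.19 CPM in the MSC lungs, again without overlap (log2 fold change -1.74, SE 0.23, adjusted p = 0.00178). Both were called whichever library was left out. Of 15 type 2 alveolar genes, 4 were called lower and none higher, among them Sftpb, a surfactant protein (-0.26, SE 0.07, adjusted p = 0.0236), Cxcl15, a lung chemokine (-0.70, adjusted p = 0.0231), and the desaturase Scd1 (-0.54, adjusted p = 0.0165). Without HDM replicates 1 and 2 the number called was 6, with Cxcl15 (adjusted p = 0.152) and Scd1 (adjusted p = 0.053) not among them, and it was 0 once day 13 replicate 3 was included.

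Genes of motile cilia were higher in 12 of 14 tested members, 4 of them called, with a median log2 fold change of 0.28. Dnah9, an outer arm dynein of cilia, was at 57.4, 52.4, 63.9, 63.7 and 54.4 CPM in the HDM lungs and at 52.2, 81.3 and 96.9 CPM in the MSC lungs (0.44, SE 0.11, adjusted p = 0.0182). Day 6 replicate 3 lay just below the lowest HDM lung, and every other MSC lung lay above the highest. Ccdc78, outside that list, takes part in centriole amplification in multiciliated cells. It was at 12.1, 12.5, 18.1, 15.6 and 13.5 CPM in the HDM lungs and at 17.0, 22.3 and 24.7 CPM in the MSC lungs (0.61, SE 0.10, adjusted p = 0.00338), with day 6 replicate 3 again the lowest MSC lung. Dnah9 was not called without HDM replicates 1 and 2 (adjusted p = 0.0938). The called count of the list was 1 without those libraries and 0 with day 13 replicate 3.

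Fbp1, a gluconeogenic phosphatase, was among the largest rises. It was at 14.05, 16.03, 17.4, 9.94 and 17.1 CPM in the HDM lungs and at 20.2, 33.0 and 66.6 CPM in the MSC lungs. All MSC lungs were above all HDM lungs, with a log2 fold change of 1.29 (SE 0.24, adjusted p = 0.00751). Aldh1a3, which makes retinoic acid, was at 2.30, 2.96, 2.31, 2.22 and 3.08 CPM in the HDM lungs and at 3.70, 5.11 and 9.12 CPM in the MSC lungs, also without overlap (1.08, SE 0.18, adjusted p = 0.00387). Day 13 replicate 4 was the highest lung for both genes. Both kept their call with any library left out.

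Contractile genes of smooth muscle were higher. Of 12 tested, 6 were called higher and 0 lower. The median log2 fold change was 0.35, and 1 value was below 0. Tagln, an actin-binding protein of smooth muscle, was at 84.9, 72.6, 100, 108 and 92.4 CPM in the HDM lungs and at 118, 133 and 160 CPM in the MSC lungs (0.58, SE 0.09, adjusted p = 0.00246). Tpm2, a tropomyosin, was at 77.4, 81.4, 66.2, 78.8 and 67.1 CPM in the HDM lungs and at 92.8, 103 and 119 CPM in the MSC lungs (0.49, SE 0.07, adjusted p = 0.00246). Neither gene's groups overlapped. Cnn1, a calponin, Myh11, the smooth muscle myosin heavy chain, Des, which encodes desmin, and Actg2, a smooth muscle actin, were called at 0.53, 0.44, 0.41 and 0.46.

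Sgcd, a sarcoglycan of the muscle membrane complex outside that list, was among the genes with the smallest p-values, at 7.59, 7.35, 6.74, 6.23 and 7.22 CPM in the HDM lungs and at 9.68, 10.9 and 13.6 CPM in the MSC lungs (0.65, SE 0.10, adjusted p = 0.00246). Myl9, a regulatory myosin light chain picked after its value was seen, rose by 0.45 (adjusted p = 0.00631). Without HDM replicates 1 and 2 the smooth muscle list had 3 called members and a median of 0.34, and Cnn1, Des and Actg2 just missed the threshold (adjusted p = 0.0502, 0.0523 and 0.054). With day 13 replicate 3 included it had 1 called member and a median of 0.31.

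Of the matrix lists here, only that of the metalloproteinases held called members. Over all genes tested, 10.0% were called and 6.15% were called lower. None of 18 collagen and remodelling genes and none of 15 elastic fibre genes was called, with medians of 0.10 and -0.13. Eln, which encodes elastin, was at 943, 1878, 489, 1565 and 1446 CPM in the HDM lungs and at 213, 596 and 1323 CPM in the MSC lungs (log2 fold change -0.87, SE 0.41, adjusted p = 0.188). Its ranges overlapped widely. Of 15 metalloproteinase genes 4 were called lower, of which Mmp8 and Mmp9 are also among the neutrophil calls above. The 4 were led in size by the collagenase Mmp13, at 35.7, 55.1, 3.56, 35.4 and 57.6 CPM in the HDM lungs and at 1.58, 9.14 and 14.8 CPM in the MSC lungs (-2.10, SE 0.53, adjusted p = 0.0283). HDM replicate 3 lay among the MSC lungs, and the adjusted p of Mmp13 was 0.0988 without HDM replicates 1 and 2.

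Genes of the circadian clock were called in both directions. The clock is a feedback loop in which the activators Clock and Arntl drive Per and Cry repressors through E-boxes, and Nr1d1 in turn represses Arntl. Of 19 clock genes, 6 were called higher, among them the repressors Per2, Per3, Cry1 and Ciart and the output factor Tef, and 4 lower, the activators Clock and Arntl with Nr1d1 and the repressor Bhlhe41. Per3 was at 55.9, 67.9, 90.4, 78.8 and 70.2 CPM in the HDM lungs and at 94.9, 112 and 151 CPM in the MSC lungs, without overlap (0.71, SE 0.12, adjusted p = 0.0043). Per2 was at 44.2, 52.7, 79.3, 59.9 and 57.3 CPM in the HDM lungs and at 77.3, 94.5 and 166 CPM in the MSC lungs (0.87, SE 0.18, adjusted p = 0.0101). One day 6 lung lay within the HDM range of Per2, and the day 13 lungs were its 4 highest.

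The log2 fold changes of further called clock genes were 0.85 for Ciart, 0.58 for Tef, 0.52 for Cry1, -0.29 for Clock, -0.51 for Arntl, -0.61 for Nr1d1 and -0.70 for Bhlhe41. Bhlhe41 was at 39.6, 53.1, 30.3, 32.8 and 25.9 CPM in the HDM lungs and at 17.8, 22.3 and 29.5 CPM in the MSC lungs (SE 0.14, adjusted p = 0.00804). Its groups overlapped through HDM replicate 5 and 1 MSC lung. Without HDM replicates 1 and 2, 2 clock genes were called higher, Per3 and Ciart, and 1 lower, Bhlhe41, while Per2 had an adjusted p of 0.0768 and Nr1d1, Arntl and Clock ones of 0.105, 0.111 and 0.0799. The labels do not give the hour at which lungs were taken.

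The E-box bound by Clock and Arntl is shown in the promoters of those called clock genes that hold it. The genes shown were called in both directions. The 250 bases before the gene start were taken from RefSeq (GRCm38.p6) and searched for CACGTG, which reads the same on both strands. RefSeq entries were matched for 4 of the 6 genes called higher and for all 4 called lower. The motif was found in 3 of the former and 1 of the latter, and in 6.86% of 27025 mouse genes with an entry. Clock genes include targets of a loop that acts through E-boxes, and list members not called were not searched. These counts therefore say nothing about why the genes were called. The matching sequences run 5′ to 3′ on the gene's strand, with each CACGTG in capitals.
Ciart (chr3:95882229-95882478, minus strand): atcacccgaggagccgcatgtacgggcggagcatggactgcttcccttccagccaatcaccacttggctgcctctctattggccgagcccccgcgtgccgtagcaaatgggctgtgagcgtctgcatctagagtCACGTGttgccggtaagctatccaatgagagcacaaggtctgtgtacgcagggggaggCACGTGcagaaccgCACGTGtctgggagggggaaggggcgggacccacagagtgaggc
Cry1 (chr10:85185055-85185304, minus strand): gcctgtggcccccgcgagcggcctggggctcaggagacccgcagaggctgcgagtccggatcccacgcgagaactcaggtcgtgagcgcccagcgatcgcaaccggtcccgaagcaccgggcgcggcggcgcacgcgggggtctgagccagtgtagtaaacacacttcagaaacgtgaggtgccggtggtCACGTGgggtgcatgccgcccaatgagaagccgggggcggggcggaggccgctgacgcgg
Tef (chr15:81802423-81802672, plus strand): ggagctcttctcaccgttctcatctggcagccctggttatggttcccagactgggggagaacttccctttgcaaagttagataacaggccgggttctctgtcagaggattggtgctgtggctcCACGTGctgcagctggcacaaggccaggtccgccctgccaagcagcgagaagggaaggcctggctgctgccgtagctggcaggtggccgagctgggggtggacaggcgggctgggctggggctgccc
Bhlhe41 (chr6:145865421-145865670, minus strand): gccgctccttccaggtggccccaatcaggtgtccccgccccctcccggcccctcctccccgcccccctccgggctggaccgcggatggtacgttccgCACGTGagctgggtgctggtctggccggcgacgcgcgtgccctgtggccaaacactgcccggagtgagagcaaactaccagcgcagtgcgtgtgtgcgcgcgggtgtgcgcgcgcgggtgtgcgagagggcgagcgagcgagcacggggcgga
Ciart held 3 copies and the other promoters 1 each. Other motifs searched in the same windows were the CArG box for smooth muscle genes (0 of 3 called members with an entry), the sterol regulatory element for lipid genes (0 of 1 called higher and 0 of 3 called lower) and the octamer for B-cell genes (0 of 10), which says only that these letters are not in these windows.

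Lipid genes were called in both directions. Cells make cholesterol through the mevalonate pathway, which sterol-sensing factors switch on, and burn fatty acids in mitochondria and peroxisomes. Of 18 lipid genes tested, 4 were called higher, among them Fdft1 and Insig1 of cholesterol synthesis and its control, and 5 lower, of which Cpt1a, Acadl, Cd36 and Angptl4 serve fatty acid oxidation, uptake and lipase control and Scd1 makes monounsaturated fatty acids. Fdft1, squalene synthase, was at 33.1, 31.98, 37.9, 35.7 and 38.0 CPM in the HDM lungs and at 35.7, 47.4 and 50.3 CPM in the MSC lungs (log2 fold change 0.36, SE 0.08, adjusted p = 0.0101). Insig1, a sterol-regulated inhibitor of the same pathway, rose by 0.34 (SE 0.08, adjusted p = 0.0164).

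Cpt1a, which carries fatty acids into mitochondria, was at 175, 188, 179, 165 and 154 CPM in the HDM lungs and at 114, 138 and 158 CPM in the MSC lungs (-0.35, SE 0.07, adjusted p = 0.00748). A single MSC lung reached the lowest HDM lung. Angptl4, an inhibitor of lipoprotein lipase, was at 27.0, 24.4, 18.6, 21.3 and 25.4 CPM in the HDM lungs and at 8.95, 14.7 and 18.1 CPM in the MSC lungs, without overlap (-0.70, SE 0.14, adjusted p = 0.00865). Pmvk, a kinase of the mevalonate pathway, was picked after its value was seen and rose by 0.61 (SE 0.12, adjusted p = 0.00726). None of the 4 higher calls of the list was left without HDM replicates 1 and 2, where 3 lower calls were found. Of the lower calls named, Cpt1a was among those, and Acadl, Cd36, Angptl4 and Scd1 had adjusted p-values of 0.222, 0.121, 0.0545 and 0.053.

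**Figure D4:**
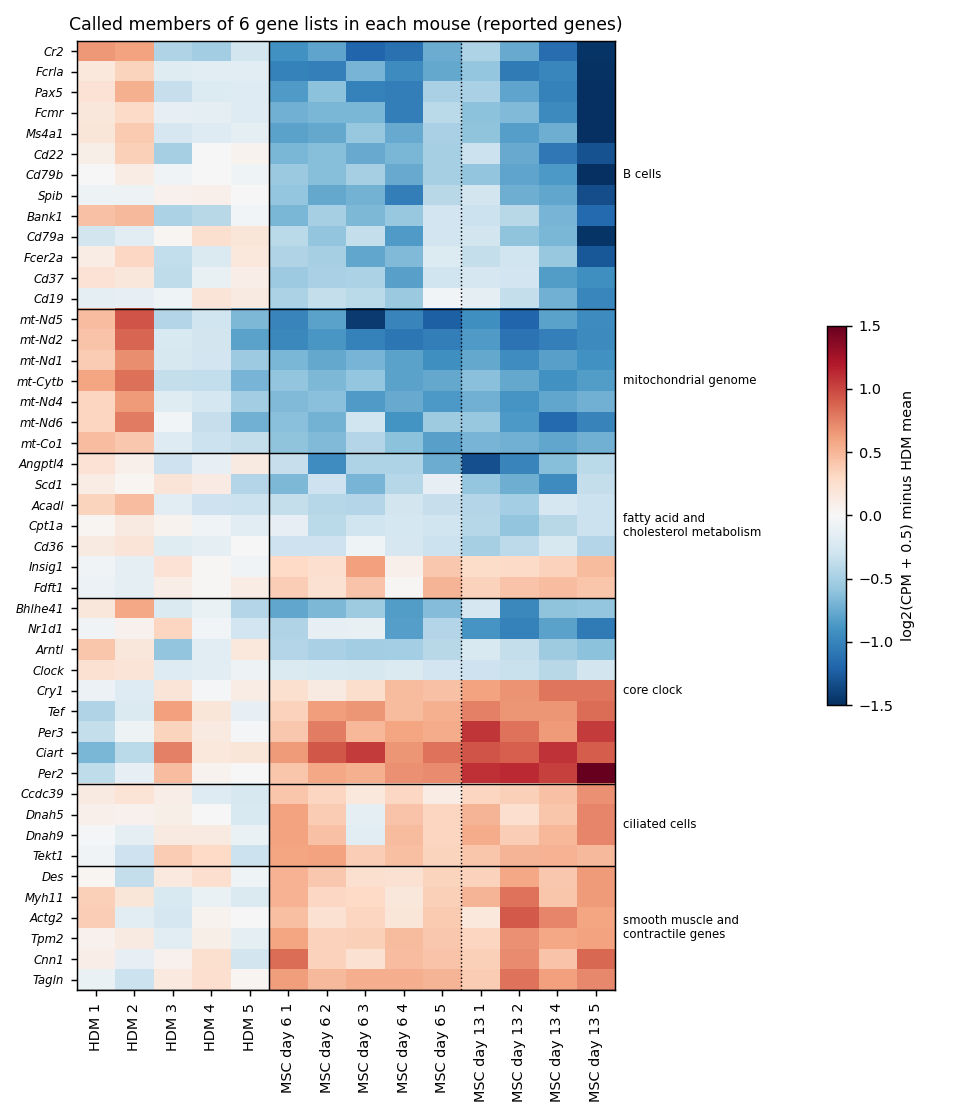
Level of called members of 6 gene lists in each lung, leaving out genes not reported here, as log2(CPM + 0.5) minus the mean of the 5 HDM lungs (red higher, blue lower; colour ends at 1.5 either way). Solid line, HDM against MSC lungs; dotted line, day 6 against day 13. HDM 1 and 2 are the reddest HDM lungs for mitochondrial genes, and MSC day 13 replicate 5 is the bluest lung for B-cell genes.

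Single genes of adhesion and protein folding were called in both directions. Sele, the endothelial adhesion molecule E-selectin, was at 2.51, 1.99, 2.93, 2.19 and 3.27 CPM in the HDM lungs and at 2.35, 6.34 and 10.6 CPM in the MSC lungs (log2 fold change 1.29, SE 0.29, adjusted p = 0.0147). One day 6 lung lay in the HDM range, and Sele was not called without HDM replicates 1 and 2 (1.15, adjusted p = 0.0909). Selplg, the selectin ligand of leukocytes, was called lower at -0.34 (SE 0.08, adjusted p = 0.0133). The inducible chaperones Hspa1a and Hspa1b, nearly identical in sequence so that their counts cannot be fully separated, rose on the log2 scale by 1.09 (adjusted p = 0.0447) and 1.07 (adjusted p = 0.04), and Bag3, their co-chaperone, fell by 0.30 (adjusted p = 0.00669). Hspa1a and Hspa1b were not called without HDM replicates 1 and 2 (adjusted p = 0.247 and 0.229).

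Serpina3m, a serine protease inhibitor of a multigene cluster, had the highest fold change among called genes averaging 1 CPM or more, at 1.71 (SE 0.48, adjusted p = 0.033), from 0.240 to 0.778 CPM in the HDM lungs and 0.734 to 4.33 CPM in the MSC lungs. Cys1, a protein of primary cilia, Pdia2, a disulfide isomerase, and the histone gene Hist1h4m rose by 0.93, 0.93 and 0.87 (adjusted p = 0.0272, 0.0173 and 0.0455), and Ksr2, a kinase scaffold, fell by 1.17 (adjusted p = 0.0349). None of these 5 was called without HDM replicates 1 and 2. Ifit3 was the one interferon-stimulated gene called among 16 (0.78, SE 0.21, adjusted p = 0.0298), and 14 of the 16 values were above 0 with a median of 0.28. Ifit3 had an adjusted p of 0.166 without HDM replicates 1 and 2, and no gene of the list was called then.

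The smallest p-values belonged to modest and uniform falls. Ywhag, the 14-3-3 gamma adaptor, was at 152, 160, 141, 149 and 149 CPM in the HDM lungs and at 106, 109 and 124 CPM in the MSC lungs (log2 fold change -0.44, SE 0.05, adjusted p = 0.00134). Ube2l3, a ubiquitin-conjugating enzyme, was at 100, 95.1, 87.8, 93.6 and 98.4 CPM in the HDM lungs and at 63.4, 70.0 and 76.3 CPM in the MSC lungs (-0.44, SE 0.05, adjusted p = 0.00134). Ccni, cyclin I, fell by 0.51 (SE 0.06, adjusted p = 0.00134) and BC048403 by 0.61 (SE 0.08, adjusted p = 0.00141). None of these 4 genes overlapped between the sides, and all 4 kept their call with any library left out and with day 13 replicate 3 included. Mettl6, a tRNA methyltransferase, was the matching small rise, at 20.2 to 22.9 CPM in the HDM lungs and 24.8 to 30.2 CPM in the MSC lungs (0.37, SE 0.06, adjusted p = 0.00289).

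Markers of MSCs gave calls in both directions. Of 13 surface and stromal markers tested, Nes was called higher (0.38, adjusted p = 0.046) and Cd44 and Thy1 lower (-0.32, adjusted p = 0.0145, and -0.49, adjusted p = 0.0141), with a median of 0.02. None of the 13 was called without HDM replicates 1 and 2, where Nes had a log2 fold change of 0.19 (adjusted p = 0.276), Cd44 one of -0.25 (adjusted p = 0.0647) and Thy1 one of -0.30 (adjusted p = 0.0931). Nes also lost its call in 10 of 14 fits that left out a single library. These genes are also expressed by cells of the lung. Of 19 genes for mediators that MSCs are known to release, Il1rn, the IL-1 receptor antagonist, Cxcl12 and Hmox1 were called lower (-0.88, -0.27 and -0.35, adjusted p = 0.0464, 0.0373 and 0.0252) and none higher. Il1rn lost its call in 13 and Cxcl12 in 9 of 14 fits that left out a single library, and without HDM replicates 1 and 2 their adjusted p-values were 0.212 and 0.0779, against 0.0121 for Hmox1.

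Each time of MSC administration was also set against the same 5 HDM libraries, so the values of the times share their controls. On its own, MSC at day 6 gave 434 called genes (2.24% of genes tested), 95 higher (0.490%) and 339 lower (1.75%), and MSC at day 13 gave 1292 (6.66%), 633 higher (3.27%) and 659 lower (3.40%). Without day 6 replicate 5 the day 6 count was 13, and without day 13 replicate 5 the day 13 count was 158. In the direct comparison of day 13 with day 6, no gene was called by edgeR's quasi-likelihood test (0.00%), with a smallest adjusted p of 0.381 and 923 genes at an unadjusted p under 0.05. Such a result does not show that the times act alike. The 95% interval of the difference between the times lay within 1 log2 unit either way for 699 of the 750 genes called higher and 1132 of the 1192 called lower. That margin is wider than the median changes of these genes (0.46 and -0.35), so it cannot show that the times agree. The median width of the interval was 0.56 for the genes called higher and 0.41 for those called lower. An unadjusted p under 0.05 between the times was found for 91 of the genes called higher and 41 of those called lower.

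**Figure D5:**
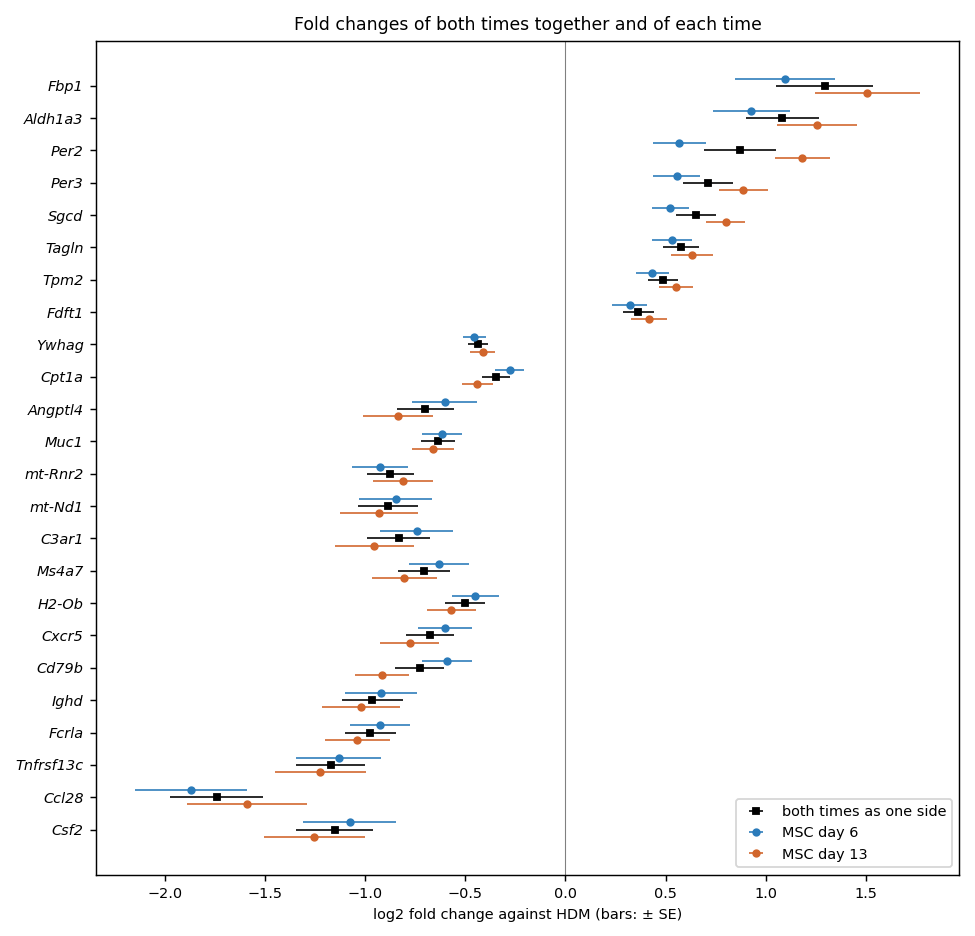
Log2 fold change against HDM alone (± SE) of 24 genes for both MSC times as one side (black squares), MSC day 6 (blue) and MSC day 13 (orange). The times share the HDM libraries. All were called with both times as one side. Csf2, Ccl28, Fcrla, Muc1 and Ywhag have nearly equal values at both times, and Per2 and Per3 are higher at day 13.

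The median log2 fold change of the genes called higher was 0.40 for day 6 and 0.50 for day 13, and that of the genes called lower was -0.34 and -0.36. These genes were called with both times as one side, against HDM libraries that both times share, so values on the same side of HDM follow from that choice and describe the genes only. The values at day 6 and day 13 were close for Ywhag (-0.45 and -0.41), Muc1 (-0.62 and -0.66), Fcrla (-0.93 and -1.04), Csf2 (-1.08 and -1.26) and Tagln (0.53 and 0.63). List medians at day 6 and day 13 were -0.60 and -0.74 for B cells, -0.81 and -0.93 for the mitochondrial genome, and 0.26 and 0.44 for smooth muscle. In 13 of the 54 lists the medians of the times had opposite signs, among them neutrophils (0.14 and -0.10), erythroid cells and platelets (0.17 and -0.11) and collagens (0.13 and -0.03). Elastic fibre genes stood at -0.02 and -0.30. These list medians were not tested between the times. Per2 lay further apart, with 0.57 at day 6 and 1.18 at day 13 and a difference of 0.61 (95% interval 0.32 to 0.90, adjusted p = 0.966). So did, among others, Cd79b (-0.59 and -0.92), Iglc2 (-0.84 and -1.39), Sgcd (0.52 and 0.80) and Eomes (-0.85 and -0.52). Their unadjusted p between the times was under 0.05 and their adjusted p was 0.966. Serpina3m, Cys1, Sele and Pdia2 were called at day 13 (adjusted p = 0.0177, 0.0164, 0.0108 and 0.0141). They were not called at day 6 (adjusted p = 0.169, 0.144, 0.0831 and 0.0973). Among genes not called for both times together, Eln had -0.45 and -1.69, and Spon2, a matrix protein, had -0.36 and -1.39 (-0.73 as one side, adjusted p = 0.063).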

How the data were processed

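Total RNA of mouse lung lobes was made into stranded libraries (TruSeq Stranded Total RNA), per the labels' protocols. The aligner STAR 2.5.3a and the build GRCm38 are named, per the submitters' processing notes. How reads were assigned to genes, with which strand option and which gene models, is not stated there. The authors deposited raw counts per gene for 15 libraries, with no normalization, and no step was undone. Gene identifiers were matched to GENCODE M21 for 55240 of 55421 rows.

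The 9 MSC libraries and 5 HDM libraries were fitted with edgeR 4.0.16 (R 4.3.3): filterByExpr by side, trimmed mean of M values (TMM) scaling, robust quasi-likelihood F tests, Benjamini-Hochberg adjustment, two-sided, at 0.05. A fit with 3 groups gave each time and their difference. Library shares were compared by exact permutation over 2002 splits. The pipeline was tested on simulated data. Alternatives used RLE and upper-quartile scaling, other filters, DESeq2 1.42.0, limma 3.58.1 (voom weights), sva 3.50.0, a fold threshold of 1.2, a loess on transcript length and GC, and libraries left out. In every gene list, up to 3 called members with the smallest p are named, with up to 10 genes of the largest change and up to 6 of the smallest p in each direction at a mean of at least 1 CPM and a fixed panel. Some genes that this rule takes are not reported here. Other genes and further list members were named after their values were seen. The comparison and the lists were chosen with earlier results of these data known. Replicate numbers follow the order of the samples and pair nothing. The closest pair of libraries had a correlation of 0.9957 over log2 CPM, and none was a copy of another. Nothing says how mice were housed or cells pooled, so p-values measure the spread between these lungs.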

Additional observations from a re-analysis of the deposited data

Results flagged for a closer look

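For each gene, the 5 HDM lungs were taken as a group and the 9 MSC lungs of both times as another. A difference between the times could therefore also set a lung apart. A value whose gap to its neighbour was large against the range of its group was marked. This was so in 19 of 336 groups examined over 168 genes (5.65%), and chance marks about 1 in 20 groups. Day 13 replicate 5 was the lowest MSC lung for Cd79b (25.9 CPM), Ms4a1 (20.6), Cxcr5 (8.86), Tnfrsf13c (7.49), Csf2 (6.02), Hmox1 (26.1) and Il1rn (25.5), and the highest for Tnxb (352). Day 13 replicate 4 was the highest MSC lung for Serpina3m (4.33 CPM), Fbp1 (66.6), Aldh1a3 (9.12) and Ywhag (124). Day 6 replicate 3 was the lowest for Ccdc78 (17.0 CPM) and Crebbp (223) and the highest for Iglc2 (27.2), and day 6 replicate 2 was the highest for Kit (203). Among the HDM lungs, replicate 2 was the highest for Muc1 (581 CPM) and the lowest for Selplg (112), and replicate 3 was the lowest for Iglc2 (22.7). In the library left out of the comparison, Rag1 stood at 1797 CPM against at most 7.22 in any other library.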

How the results depend on the processing

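The 1942 called genes became 852 with day 13 replicate 3 included (220 higher, 632 lower), 1230 without a filter (420 higher), 2952 with DESeq2 (1169 higher), 3416 with 1 surrogate variable (1805 higher), 3012 with the length and GC loess (1961 lower), 13 past a fold of 1.2 (2 higher, 11 lower) and 1541 without HDM replicates 1 and 2 (491 higher). DESeq2 was not run between the times. RLE scaling gave 2002 and voom weights 1471. Leaving out 1 library gave 936 to 2904 (322 to 1176 higher, 614 to 1728 lower). For day 6 this range was 13 to 1251, with 14 without day 6 replicate 4 and 13 without replicate 5; day 6 replicates 1, 2 and 3, day 13 replicates 1 and 2 and HDM replicates 1, 2 and 3 each moved it by over 1.5 times (38, 157, 93, 226, 169, 51, 180 and 1251). For day 13 it was 158 to 2135, moved as far by day 13 replicates 1, 2 and 5 and HDM replicate 3 (612, 412, 158 and 2135). With day 13 replicate 3, day 6 gave 19. Without HDM replicates 1 and 2, day 13 gave 2279. The times differed in 0 to 2 genes, 2 of them without HDM replicate 3. The cause was not tested.

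The difference of the 50 most counted genes was -1.12 percentage points with day 13 replicate 3 (adjusted p = 0.779), and without HDM replicates 1 and 2 that of immunoglobulin was -0.316 (adjusted p = 0.127), haemoglobin -0.00817 and ribosomal protein -0.0151, the last 2 reversed. Reversed log2 fold changes, all of genes not past the test there, were 1.15 for Tcf7 and 0.63 for Thy1 with day 13 replicate 3, -0.0064 for Myh7 and -0.0016 for Il13 without HDM replicates 1 and 2, -0.031 for Il13 without HDM replicate 3, and -0.030 and -0.028 for Muc5ac without HDM replicate 5 and day 6 replicate 1. Il4 gave -0.0097 with day 13 replicate 3, -0.11 without HDM replicates 1 and 2, and -0.055, -0.13 and -0.0031 without HDM replicates 2 and 3 and day 13 replicate 2 (-0.13 to 0.48 over single libraries left out; Il13 -0.031 to 0.60 and Muc5ac -0.030 to 0.32). Of 149 called genes examined singly, 83 stayed called whichever library was left out, and the others lost the call without at least 1, most often HDM replicate 1 or 2. B-cell, mitochondrial, clock, ciliated and smooth muscle medians kept their sign under RLE and upper-quartile scaling. These scalings moved the median over all genes tested from 0.027 only to 0.013 and 0.041. Such a shift is too small to change those signs, so the check could not have failed. No paired analysis was possible because the replicate numbers come from sample order.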

Other observations

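Other lists held a few calls each. Of 18 TGF-beta, BMP and activin genes, Tgfbr1, a receptor kinase, and Tgfb2, a ligand, were called lower (-0.38, SE 0.09, adjusted p = 0.0188, and -0.30, SE 0.08, adjusted p = 0.0295), and neither was called without HDM replicates 1 and 2. Sgk1, a kinase induced by glucocorticoids, was at 150, 146, 124, 173 and 177 CPM in the HDM lungs and at 96.8, 117 and 138 CPM in the MSC lungs (-0.40, SE 0.09, adjusted p = 0.0151), while that list of 17 genes had 4 called lower, 1 higher and a median of 0.16. In the endothelium list of 14, Emcn and Cdh5 were called lower (-0.35 and -0.24) and Egfl7 higher (0.65). No endothelial gene was called without HDM replicates 1 and 2, where Egfl7 had a log2 fold change of 0.30 (adjusted p = 0.105), and single libraries left out ended the call of Egfl7 in 12 and of Cdh5 in 11 of 14 fits. Tyms, a nucleotide synthesis enzyme, was the only call among 18 cell cycle genes (0.34, adjusted p = 0.0213). Neat1, the scaffold RNA of paraspeckles, was called higher (0.56, adjusted p = 0.0197; 0.0728 without HDM replicates 1 and 2).

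Genes picked after their values were seen included S100a11, a calcium-binding protein, at 318 and 328 CPM in HDM replicates 1 and 2, at 131, 135 and 131 CPM in the other HDM lungs and at 79.3, 102 and 114 CPM in the MSC lungs. Its log2 fold change was -1.08 (adjusted p = 0.011), and -0.44 (adjusted p = 0.0151) without those libraries. Tnxb, a tenascin of connective tissue, was at 102 and 117 CPM in the same HDM lungs, at 199, 174 and 179 CPM in the others and at 210, 254 and 352 CPM in the MSC lungs (0.72, SE 0.15, adjusted p = 0.01). Immediate early, hypoxia and integrated stress response genes gave no call in 17, 14 and 13 tested.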
